A study of Mus musculus with 2 samples.

Results

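Matrix metalloproteinases (MMPs) and their tissue inhibitors (TIMPs) were examined in whole mouse hearts after myocardial infarction. The members are the genes Mmp2, Mmp3, Mmp8, Mmp9, Mmp12, Mmp14, Timp1, Timp2, Timp3 and Timp4, and every probe set annotated with just that gene symbol was taken. This gave 23 of the 45101 probe sets on the array and 10 of its 18193 named genes. In the infarct group, C57BL/6J males aged 10 weeks had their left anterior descending coronary artery ligated permanently. Sham-operated males of the same strain and age underwent the procedure with the artery not tied. Hearts of both groups were taken 3 days after surgery, and neither group carried a genetic modification in the labels. Each group is 1 pool of RNA from 3 hearts on 1 array, without replicates. The groups therefore allow no test, no value has an error between animals, and each difference compares a single infarct pool with a single sham pool. The labels name the heart as the tissue without separating infarcted from remote muscle. All 10 cardiomyocyte markers examined were brighter than the array median in both pools.

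MMPs are zinc-dependent enzymes that cut proteins of the extracellular matrix and release or inactivate signalling proteins. They are made as inactive precursors, and removal of a propeptide opens the active site. TIMPs bind active MMPs and block them, so that the turnover of matrix depends on enzymes and inhibitors together. After myocardial infarction, dead muscle is cleared by leukocytes and replaced by a collagen scar, and both steps involve these proteins. An mRNA level does not show how much of an MMP is active.

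In the deposited values of the enzymes compared, Mmp12 and Mmp14 were higher in the infarct pool by 2-fold or more. Mmp2 lay near 0, and Mmp3 and Mmp9 lay between. Of the inhibitors, Timp1 was higher by 2-fold or more, while Timp2, Timp3 and Timp4 lay near 0. The signs of the values near 0 depended in part on the scaling. Values are log2 values, and differences are infarct minus sham, so that 1 is a 2-fold higher value in the infarct pool. The brightest probe set stood for its gene, and the gene was compared if this value reached the array median (6.35 in the infarct pool and 6.36 in the sham pool) in either pool. Of the 10 members, 9 passed this filter, and Mmp8 did not. In the infarct pool 3 of the 9 were higher by 2-fold or more (Mmp12, Timp1 and Mmp14), while among all 11961 genes compared the share was 3.73%. None of the 9 was 2-fold lower (0 of 9), beside 1.26% of all genes. Above 0 lay 6 of the 9, beside 49.5% of all genes, and 3 lay below 0, beside 49.8% of all genes. Their median was 0.63, and that of all genes was 0. The study's threshold, a log2 difference of 1.4, was passed by 2 of the 9, Mmp12 and Timp1, beside 1.49% of all genes.

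Probe sets gave the same picture with some disagreement inside genes. Of the 21 member probe sets bright enough, 5 were higher by 2-fold or more in the infarct pool (3.52% of all bright probe sets), and these belonged to Mmp9, Mmp12, Mmp14 and Timp1. The Mmp9 probe set among them was dim in the sham pool and passed the filter by its infarct value alone. Another 10 of the 21 lay below 0 (50.2% of all bright probe sets), and 0 of these reached 2-fold (1.19%). The SD between the differences of probe sets for the same gene was 0.23, pooled over 5190 genes with several bright probe sets. It describes disagreement among probes and says nothing of the spread among mice.

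**Figure D1:**
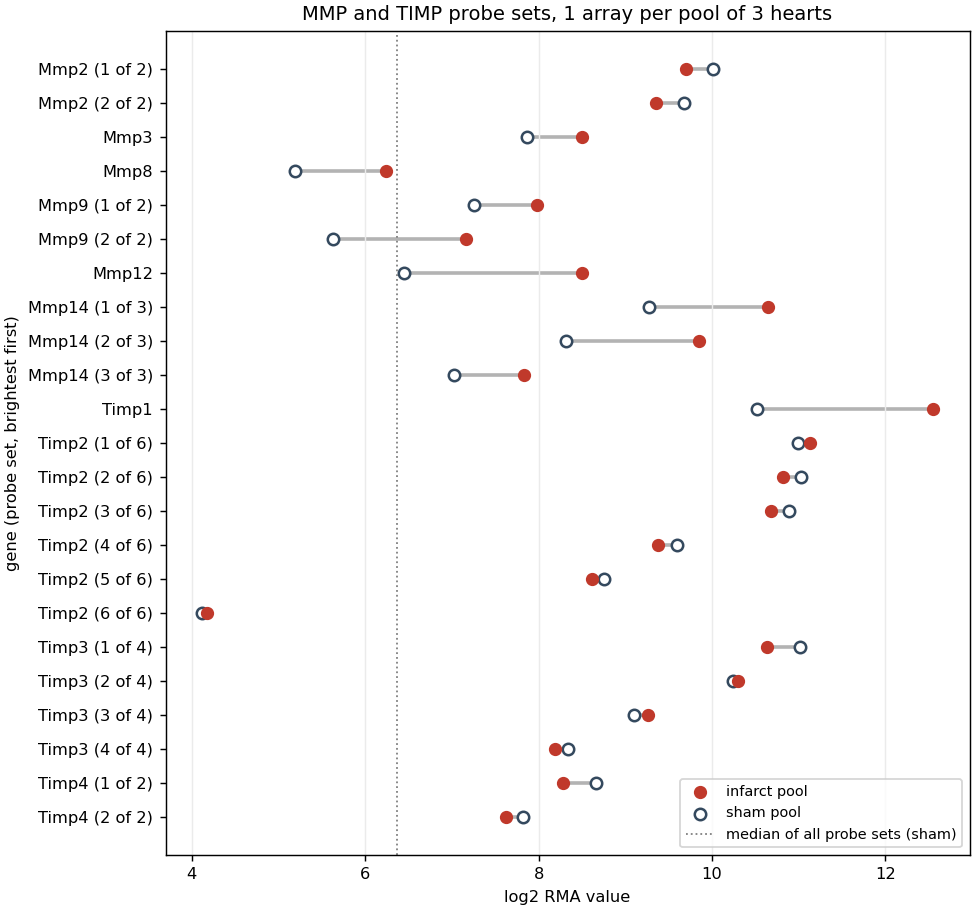
Log2 RMA value of each of the 23 member probe sets in the infarct pool (red) and the sham pool (open circles), 1 array per pool, with the sham median of all probe sets dotted. The widest gaps are those of Mmp12 (8.50 in the infarct pool and 6.45 in the sham pool) and Timp1 (12.55 and 10.52 in the same order), whereas the points of Timp2 and Timp3 lie close together.

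Mmp12 and Mmp3 were both higher in the infarct pool. Mmp12, which encodes the elastase of macrophages, had 8.50 in the infarct pool and 6.45 in the sham pool, a difference of 2.05 (4.13-fold). Only 44 of the 11961 genes compared had a larger difference. Its sham value lay just above the array median of 6.36, so that the size of this difference rests on a dim value. Mmp3 encodes stromelysin, which degrades proteoglycans, laminin and fibronectin and activates other MMPs. It had 8.50 in the infarct pool and 7.86 in the sham pool, a difference of 0.63 (1.55-fold). Each of these genes has 1 probe set, so no other probe set bears on either value.

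Mmp12 and Mmp3, which lie close together on chromosome 9, shared letters in their promoters. Promoter windows of 250 bases before to 50 bases after an annotated start were taken from RefSeq (GRCm38.p6) and searched on both strands for 3 motifs. These were the AP-1 heptamer (TGAGTCA or TGACTCA), the TATA hexamer (TATAAA or TTTATA) and the GC box hexamer (GGGCGG or CCGCCC). Windows were found for 8 of the 10 members, and Mmp12 had 2, of which the one not shown held none of the motifs. AP-1 letters were in the windows of 2 members, Mmp3 and Mmp12, and in 5.20% of all 32851 promoters. They began 46 bases before the start of Mmp3 and 44 bases before that of Mmp12. TATA letters were in the windows of Mmp3, Mmp8 and Mmp12 and in 13.6% of all promoters. Relative to the annotated start, they began 7 bases before it in Mmp3, 3 before it in Mmp8 and 4 after it in Mmp12. GC box letters were in those of Mmp14, Timp1, Timp2 and Timp3 and in 35.7% of all promoters. AP-1 is the pair of FOS and JUN family factors through which many growth factor and cytokine signals act. A match is a description of the letters and does not show that a factor bound there. Only exact letters were searched, so a window without a match can still hold a variant of the motif. The windows of Mmp12 and Mmp3 are printed because they hold both AP-1 and TATA letters, a pairing found in 0.941% of all promoters, and those of Timp1 and Timp2 because both held GC box letters and neither of the other motifs although the differences of these inhibitors were unlike (2.04 and 0.15). Capitals mark the matches, and each sequence runs 5′ to 3′ on the strand of the gene.
Mmp12 (chr9:7347124-7347423, plus strand): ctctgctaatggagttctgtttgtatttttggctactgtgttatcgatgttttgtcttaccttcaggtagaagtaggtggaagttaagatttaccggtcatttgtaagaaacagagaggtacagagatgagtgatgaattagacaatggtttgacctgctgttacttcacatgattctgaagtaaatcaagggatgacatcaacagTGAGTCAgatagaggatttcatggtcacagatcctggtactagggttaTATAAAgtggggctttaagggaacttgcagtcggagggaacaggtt
Mmp3 (chr9:7445572-7445871, plus strand): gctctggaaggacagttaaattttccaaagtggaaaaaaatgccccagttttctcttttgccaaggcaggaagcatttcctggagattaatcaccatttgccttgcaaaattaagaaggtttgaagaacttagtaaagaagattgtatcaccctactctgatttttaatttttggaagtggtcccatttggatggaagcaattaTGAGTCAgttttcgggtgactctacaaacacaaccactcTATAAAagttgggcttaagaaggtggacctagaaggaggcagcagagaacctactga
Timp1 (chrX:20869916-20870215, plus strand): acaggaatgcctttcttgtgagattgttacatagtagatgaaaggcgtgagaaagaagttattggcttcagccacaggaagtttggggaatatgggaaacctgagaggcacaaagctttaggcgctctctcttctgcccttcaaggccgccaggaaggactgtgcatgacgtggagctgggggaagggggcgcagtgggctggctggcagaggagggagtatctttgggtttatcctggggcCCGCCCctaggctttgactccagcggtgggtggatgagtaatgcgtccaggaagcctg
Timp2 (chr11:118355362-118355661, minus strand): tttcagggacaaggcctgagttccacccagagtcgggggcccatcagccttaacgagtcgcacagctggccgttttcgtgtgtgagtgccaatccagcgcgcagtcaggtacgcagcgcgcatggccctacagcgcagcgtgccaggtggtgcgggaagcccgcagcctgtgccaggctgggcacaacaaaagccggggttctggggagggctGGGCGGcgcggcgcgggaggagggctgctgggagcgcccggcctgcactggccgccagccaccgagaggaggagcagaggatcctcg
In these windows G and C made up 40.7% of the bases for Mmp12, 40% for Mmp3, 55% for Timp1 and 68.7% for Timp2, while the median over all promoters was 52.7%. The windows of Mmp8 (46%), Mmp14 (56%), Timp3 (67%) and Timp4 (53.3%) lay between the lowest and highest of these.

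Mmp8 and Mmp9, whose enzymes neutrophils store, were both higher in the infarct pool, Mmp8 at low signal. Mmp8, the neutrophil collagenase, had 6.24 in the infarct pool and 5.19 in the sham pool, a difference of 1.05 (2.07-fold). Both values lay below the array medians, so that Mmp8 took no part in the counts and the size of its difference is uncertain. Mmp9 encodes gelatinase B, which neutrophils and macrophages release and which cuts denatured collagen and basement membrane collagen. Its brighter probe set had 7.99 in the infarct pool and 7.25 in the sham pool, a difference of 0.74 (1.67-fold). Its other probe set had 7.16 in the infarct pool and 5.62 in the sham pool, a difference of 1.54 (2.91-fold), with the sham value below the median. Both probe sets placed Mmp9 higher in the infarct pool, but they differed by 0.81 in size, and which is nearer to the transcript was not tested.

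The neutrophil and macrophage markers compared lay mostly above 0, whereas the lymphocyte markers compared did not. Of 12 neutrophil markers listed, 10 had a probe set and 5 were bright enough, all 5 above 0 and 4 of them at least 2-fold higher, with a median of 1.27. The highest were S100a8 (1.72) and S100a9 (1.54), which encode the subunits of calprotectin, and Lcn2 (1.27), whose protein binds MMP9. Their linear values, summed over the 10 markers, came to 3210.4 in the infarct pool and 1380.1 in the sham pool. The granule protein genes Mpo, Elane, Ltf, Ngp and Camp, named after their values were seen, were dimmer than the median in both pools and were not counted. Their differences were 0.19, -0.062, -0.13, -0.12 and 0. Cxcr2 (0.45), which was counted, was dim in the sham pool and passed the filter by its infarct value alone. Of 15 macrophage markers compared, 14 lay above 0 and 8 were at least 2-fold higher, again beside 49.5% and 3.73% of all genes, with a median of 1.12. Chil3 (3.67, dim in the sham pool), the arginase gene Arg1 (2.37) and the scavenger receptor gene Msr1 (1.95, with 4 probe sets from 0.68 to 1.95) led. The summed values were 27785 in the infarct pool and 14690.4 in the sham pool. Of 5 lymphocyte markers listed, 2 were bright enough, Cd3e (-0.042) and Cd8a (-0.23, with 5 probe sets from -0.23 to 0.22). Both were above 0 with the hybridisation controls as zero. In whole hearts, more cells of a type and more RNA per cell cannot be told apart, and the part of these markers in the differences of Mmp8, Mmp9 and Mmp12 was not tested.

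Of Mmp14 and Mmp2, which act in sequence at the cell surface, only Mmp14 differed by 2-fold or more, and with the housekeeping genes as zero its brightest probe set came to 0.995, just under 2-fold. Mmp14 encodes membrane type 1 MMP, a collagenase anchored in the membrane that activates the MMP2 precursor in a complex with TIMP2. Its probe sets had 10.64, 9.85 and 7.83 in the infarct pool, against 9.27, 8.31 and 7.02 in the sham pool. The differences were 1.37 (2.59-fold), 1.54 (2.90-fold) and 0.80 (1.74-fold), so that all 3 probe sets lay higher in the infarct pool and the dimmest gave the smallest difference. Mmp2 encodes gelatinase A, which fibroblasts and other stromal cells make without stimulation. Its probe sets had 9.70 and 9.35 in the infarct pool, against 10.01 and 9.68 in the sham pool. Both were slightly lower in the infarct pool, by log2 differences of -0.31 and -0.33, which came to 0.0038 and -0.0086 with the hybridisation controls as zero and to -0.69 and -0.70 with the housekeeping genes. The gap between the differences of Mmp14 and Mmp2 was 1.69, which does not depend on where the zero of the scale is set.

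Timp2, the inhibitor in that complex, had no clear direction. Its brightest probe set had 11.14 in the infarct pool and 10.99 in the sham pool, a difference of 0.15. The other 4 bright probe sets lay below 0, between -0.22 and -0.15, and the mean over all 6 probe sets was -0.098. The largest of these is smaller than the SD between probe sets. Mmp14 exceeded Timp2 by 1.23 in its difference.

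Among the inhibitors, Timp1 stood apart from the other TIMPs. Timp1 encodes the inducible TIMP, which inhibits most secreted MMPs and has effects on cell growth of its own. It had 12.55 in the infarct pool and 10.52 in the sham pool, a difference of 2.04 (4.10-fold) by its 1 probe set, and 45 of all genes compared had a larger one. Timp3 encodes the TIMP that binds to the matrix and also inhibits ADAM proteases. Its brightest probe set had 10.64 in the infarct pool and 11.01 in the sham pool, a difference of -0.37 (-0.75 with the housekeeping genes as zero and -0.057 with the hybridisation controls), whereas the remaining ones were at 0.065, 0.16 and -0.16 and thus on both sides of 0. Timp4 encodes the TIMP known for its high level in heart muscle. Its probe sets had 8.28 and 7.63 in the infarct pool, against 8.66 and 7.82 in the sham pool, and both were lower in the infarct pool (differences of -0.38 and -0.19, or -0.063 and 0.13 with the hybridisation controls as zero and -0.76 and -0.57 with the housekeeping genes). The difference of Timp1 exceeded those of Timp2, Timp3 and Timp4 by 1.89, 2.41 and 2.42, whichever zero is used. The median of the 4 inhibitor genes was -0.11, which became 0.20 with the hybridisation controls as zero and -0.49 with the housekeeping genes. That of the 5 MMP genes compared was 0.74, or 1.05 and 0.36 on the same zeros.

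**Figure D2:**
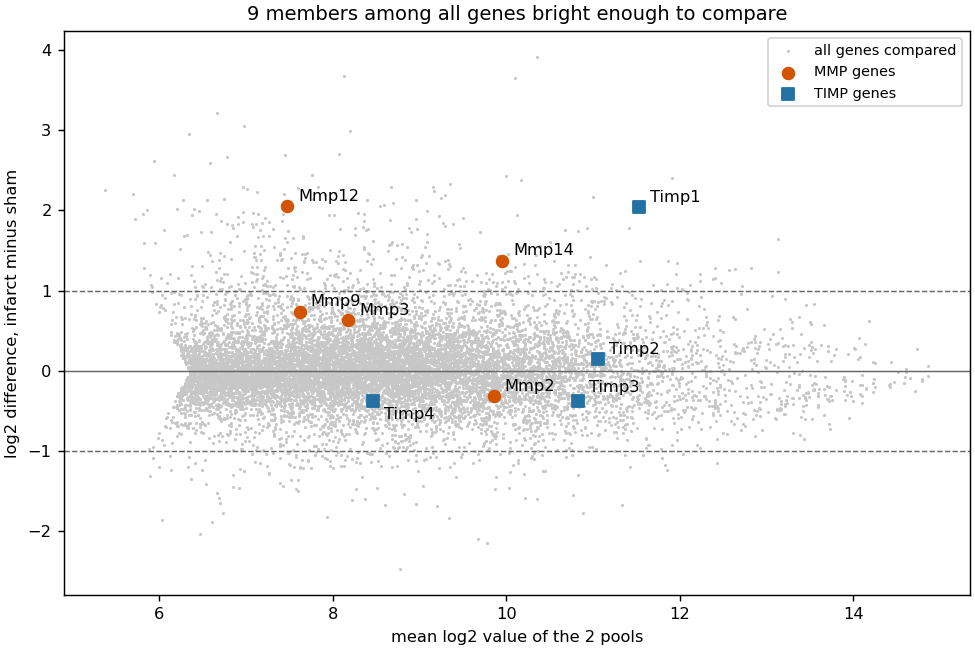
Log2 difference (infarct minus sham) against the mean log2 value of both pools for 11961 genes (grey), with the 5 MMP genes in orange and the 4 TIMP genes in blue, and dashed lines at 2-fold. Mmp12 (2.05), Timp1 (2.04) and Mmp14 (1.37) lie above the upper line, and Mmp2, Timp3 and Timp4 lie between 0 and -0.38.

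The sign of small differences depended on the zero of the scale. The 9 housekeeping genes with a probe set had a mean difference of 0.38, ranging from -0.44 (Sdha) to 1.12 (Gusb). Probe sets disagreed inside this zero too: Actb entered with 0.82 by the brighter of its 2 probe sets, and the other was at -0.62. How far this choice moves the housekeeping zero was not tested. The 18 probe sets of the hybridisation controls, added transcripts of bacteria and a phage, were on average 0.32 lower, and the 24 probe sets of the poly-A controls were 0.057 higher. Which zero is right was not tested. With the housekeeping genes as zero, Mmp12 (1.67) and Timp1 (1.66) stayed above 2-fold, while Mmp14 came to 0.995 and Timp2 to -0.23. Centring on the hybridisation controls brought Mmp9 to 1.05, and Mmp2 to 0.0038, next to 0. Timp3 and Timp4 remained below 0 by their brightest probe sets under both (-0.057 and -0.063 at the values nearest to 0). Mmp3, Mmp8, Mmp9, Mmp12, Mmp14 and Timp1 were above 0 under all 3 of these centrings. Over all genes compared, 446 were at least 2-fold higher and 151 lower as deposited. These counts were 188 and 656 with the housekeeping genes as zero, and 962 and 40 with the hybridisation controls.

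**Figure D3:**
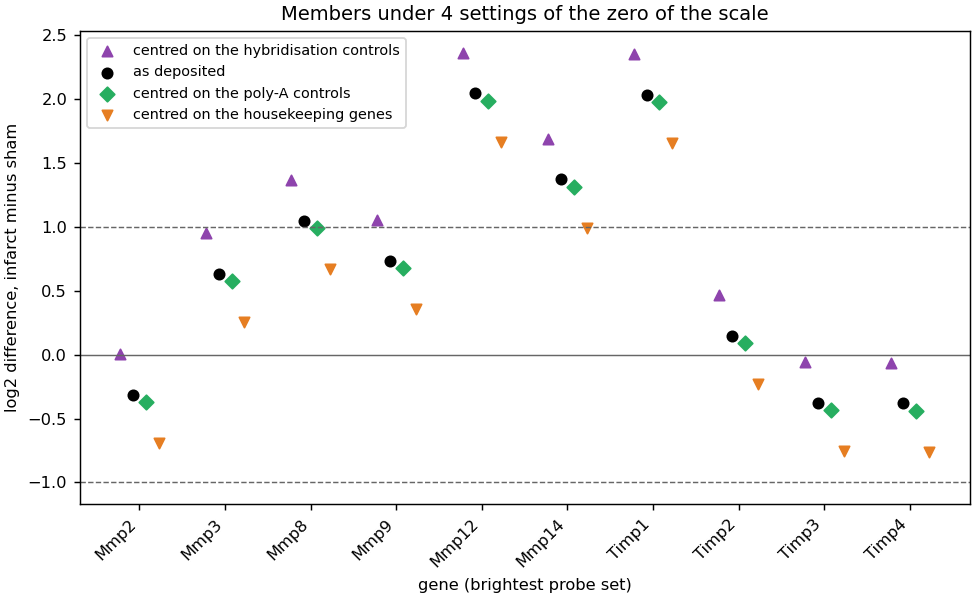
Log2 difference (infarct minus sham) of each member's brightest probe set under 4 settings of the zero of the scale, with dashed lines at 2-fold. Mmp12 and Timp1 stay above the upper line in each (lowest 1.67 and 1.66), whereas Timp2 changes side of 0 (0.15 as deposited and -0.23 after centring on the housekeeping genes).

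The rest of the MMP family gave little signal. Of 17 other MMP genes listed, 12 had a probe set of their own in the annotation used, 3 were bright enough and none differed by 2-fold (0 of 3). Mmp23 had 8.80 in the infarct pool and 8.45 in the sham pool by the brighter of its 2 probe sets. Its difference was 0.35, below 0 after centring on the housekeeping genes, and the other probe set gave 0.61 as deposited. Mmp11, known as stromelysin-3, had 6.82 in the infarct pool and 7.18 in the sham pool (-0.36). Mmp24, a membrane type MMP, had 7.18 in the infarct pool and 7.37 in the sham pool (-0.19, above 0 after centring on the hybridisation controls). The interstitial collagenase genes Mmp13, Mmp1a and Mmp1b, named for their role after their values were seen, were dim in both pools, with 4.53, 3.61 and 3.61 in the infarct pool, against 4.26, 3.67 and 3.95 in the sham pool.

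Genes whose proteins activate, bind or dock MMPs had smaller differences than Mmp12 and Timp1. The largest of them, that of Lcn2 (1.27), was close to that of Mmp14 (1.37). Of 12 such genes compared, 3 were at least 2-fold higher and 9 lay above 0 (7 with the housekeeping genes as zero), with a median of 0.45. The shares among all genes were 3.73% and 49.5%. Pcsk5 (0.20) was among the 9 and passed the filter by its infarct value alone. The 3 were Lcn2 (1.27), Cd44, whose protein docks MMP9 at the cell surface (1.11, although its 4 probe sets ran from -0.13 to 1.26), and Plaur, the receptor of urokinase (1.04). Furin, the convertase that activates membrane type MMPs, differed by 0.47, and Reck, a membrane-anchored inhibitor of MMPs, by -0.26. Bsg, whose protein induces MMPs in fibroblasts, differed by -0.34. The last 3 genes were named for their role after their values were seen, and Reck was above 0 after centring on the hybridisation controls.

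Genes of MMP substrates and of inducing signals lay mostly above 0. Among all genes compared, 49.5% lay above 0 and 3.73% were at least 2-fold higher. Of 13 substrate genes compared, 12 lay above 0 (9 with the housekeeping genes as zero) and 4 were at least 2-fold higher, with a median of 0.75. Bcan (0.34) was among the 12 and passed the filter by its infarct value alone. Tnc, which encodes tenascin C, led with 2.43, followed by the versican gene Vcan (1.57, with 8 probe sets from -0.22 to 1.57) and the basement membrane collagen gene Col4a1 (1.25). Of 16 cytokines, receptors and transcription factors known to induce MMP genes, 15 lay above 0 (10 after that centring) and 2 were at least 2-fold higher, with a median of 0.51. These were Il6 (3.05, dim in the sham pool) and the AP-1 subunit Fosl2 (1.07 by 1 of its 2 probe sets and 0.21 by the other), followed by the oncostatin M receptor gene Osmr (0.96, with 3 probe sets from 0.028 to 1.29). Il6 and Fosl1 (0.70) passed the filter by their infarct values alone. The fibroblast markers had a median of 0.038 over 10 genes, with Postn (1.28) and Thy1 (1.09) highest and Gsn (-0.79) lowest, and the median was below 0 with the housekeeping genes as zero and likewise with the poly-A controls. The 10 cardiomyocyte markers had a median of -0.14, or 0.18 with the hybridisation controls as zero. The largest differences among them were those of Myh7 (0.95), Ryr2 (-0.39) and Tnni3 (-0.38). Among the fibroblast markers, 6 lay above 0 and 4 below. Of 6 endothelial markers, 4 lay above 0, with a median of 0.22 (-0.16 with the housekeeping genes as zero). Pecam1 (0.56), Emcn (0.29) and Cdh5 (0.24) differed most. Of 4 smooth muscle markers, 3 lay above 0, with a median of 0.42 (0.038 on that zero). Tagln (0.80), Myh11 (-0.77) and Acta2 (0.54, with 3 probe sets from -0.29 to 0.54) differed most. The part of any of these cell types in the members' differences was not tested.

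**Figure D4:**
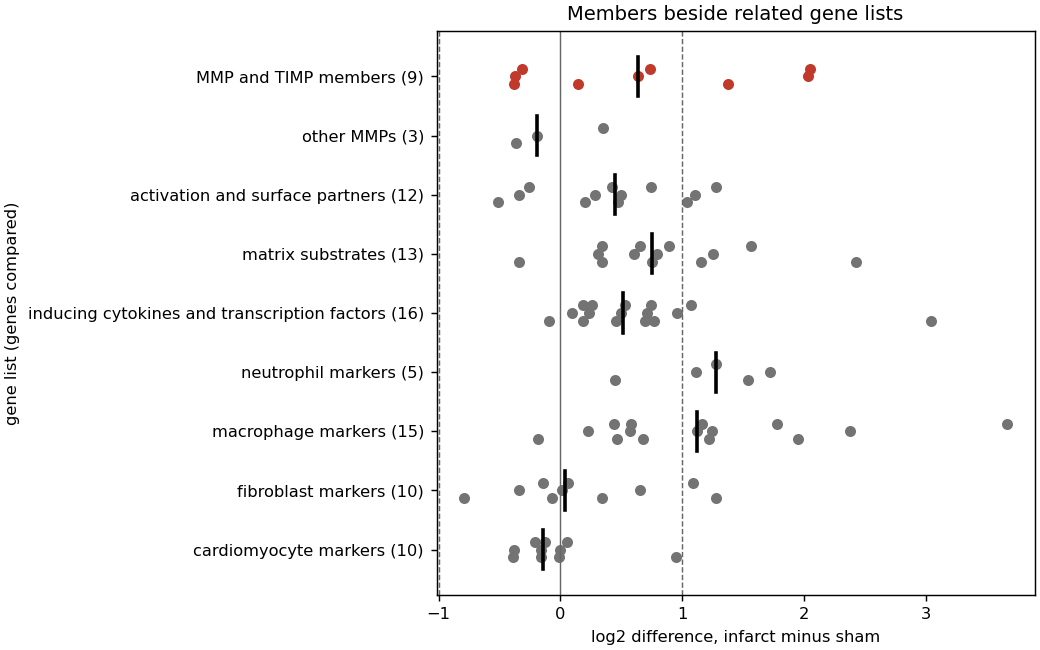
Log2 difference (infarct minus sham) of each gene compared in 9 lists, 1 point per gene, with the median of each list as a black bar and dashed lines at 2-fold. The members (red) run from -0.38 to 2.05 with a median of 0.63, and the neutrophil and macrophage markers have medians of 1.27 and 1.12.

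The members lie on several chromosomes, and 3 of the 10 are close together. In the RefSeq annotation (GRCm38.p6), Mmp12, Mmp3 and Mmp8 belong to a group of 10 MMP genes on chromosome 9. The order is Mmp13, Mmp12, Mmp1b, Mmp3, Mmp1a, Mmp10, Mmp8, Mmp27, Mmp20 and Mmp7. Of the 9 with a probe set, only Mmp12 and Mmp3 were bright enough to compare. Mmp1b, which lies between them, had 3.61 in the infarct pool and 3.95 in the sham pool. Mmp10, which precedes Mmp8 in this order, had 6.08 in the infarct pool and 6.27 in the sham pool, both dim. The dim values of the other genes limit what can be said of the group as a whole.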

How the data were processed

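Total RNA of 1 pool of infarcted and 1 pool of sham-operated hearts (3 mice each) was measured on GeneChip Mouse Genome arrays. The deposited values are on the log2 scale: per the submitters' processing notes the authors used RMA, which corrects the background, normalizes the arrays against each other and summarises each probe set. Which program ran RMA is not given in the sources used here. Both arrays thereby have nearly the same distribution (values from 2.95 to 14.9), which hides a difference in total mRNA and can compress bright probe sets. No scanner file was used here. Of 45101 probe sets, 34945 pair with 1 gene symbol in the annotation of the array, 932 with several and 9160 with none, and 64 are controls. All 23 member probe sets were matched to RefSeq by Entrez identifier.

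From these values differences (infarct minus sham) were computed per probe set. The probe set with the highest mean value stood for its gene, which was compared if this probe set reached the median on either array. With 1 array per group no p-value was computed, and precision is limited by that number. Of each list, the 3 genes with the largest difference were named. Other names are marked, or are given because the gene passed the filter on the infarct array alone. The members and lists were chosen with earlier results of these data known. Alternatives were other scalings (median, quantile, loess with span 0.4, 3 sets of controls), other choices of probe sets, no filter or the 75th percentile, and a threshold of 1.4. The procedure was run on simulated data with shifts set in advance, which checks the code and says nothing of the spread in these arrays. Python 3.11.15 with numpy 2.4.6, pandas 2.3.3, statsmodels 0.14.6 and matplotlib 3.10.9 were used.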

Additional observations from a re-analysis of the deposited data

How the results depend on the processing

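The count of members at least 2-fold higher (3) was 2 to 4 under the alternatives per gene, and 5 when probe sets were counted in place of genes. Mmp12 and Timp1 were among them in all 10 alternatives per gene other than the threshold, which they also passed. Mmp9 joined on averaging probe sets (1.14) or with the hybridisation controls as zero, and Mmp8 joined without the filter. None was 2-fold lower (0) under any alternative. The median of the members, 0.63, was 0.39 with the filter at the 75th percentile, which left out Mmp9, 0.25 after centring on the housekeeping genes and 0.95 after centring on the hybridisation controls. Those centrings shift all genes by -0.38 and 0.32. Of 100 single-gene values under 10 alternatives, 77 moved by less than the SD between probe sets and 23 by more. These counts follow largely from the settings chosen. Changing the filter, or leaving out probe sets whose names end in _x_at or _s_at, left every member's value as it was. The housekeeping and hybridisation centrings moved every member by more than that SD. Timp2 changed sign in 2 alternatives and Mmp2 in 1.

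No paired analysis was possible because each group had 1 array. No array was left out, since 1 of each group is needed. Mmp8 and the sham value of the second Mmp9 probe set lay below the array median, which limits the precision of their differences.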

Other observations

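The inhibitor genes lie inside or across other genes. In the RefSeq annotation, Timp1, Timp3 and Timp4 lie within the spans of the synapsin genes Syn1, Syn3 and Syn2, which encode proteins of synaptic vesicles, and Timp2 overlaps Cep295nl. Among the enzymes, Mmp8 lies within Gm31751 and Mmp2 overlaps Gm45472. These neighbours were looked up after the members' values were seen. Syn1 had 6.33 in the infarct pool and 5.94 in the sham pool, and Syn2 had 6.27 in the infarct pool and 6.14 in the sham pool, so that both were dim on both arrays. Syn3 had 6.70 in the infarct pool and 7.17 in the sham pool, a difference of -0.47, beside -0.37 for the brightest probe set of Timp3. Syn3 was below 0 after centring on the hybridisation controls as well. The 2.04 of Timp1 was not seen in Syn1, whose difference was 0.39.

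A second probe set of Mmp19, a gene whose brighter probe set was dim in both pools (difference 0.11), gave 0.54. The difference between such probe sets was not tested.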
